A study of Mus musculus with 16 samples.

Results

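The genes described here are 10 RNA-binding regulators of splicing in neurons, of 24968 genes with a unique symbol in each bulk RNA-sequencing library: Celf1, Celf2, Celf4 and Celf5 of the CELF family, Rbfox1, Rbfox2 and Rbfox3 of the RBFOX family, Nova1 and Nova2, and the neuronal Hu gene Elavl3. They were taken by symbol, each symbol matched 1 listed gene, and all 10 were above the low-value filter in each comparison. The study microdissected CA1, CA3 and dentate gyrus (DG) from the dorsal hippocampus of mice, and asked how their transcriptomes differ between mice that learned to avoid a shock zone on a rotating arena (active place avoidance, trained) and mice placed in the same arena with the shock off (untrained). All mice, controls included, carried ArcCreERT2::eYFPflx on a C57BL/6 background, were 3 to 4 months old, and had a retention test with no shock 24 h after training, with tissue taken 60 min after that test. This allele puts an inducible Cre recombinase under the Arc gene, and no group without the allele was compared. CA1 was represented by 3 trained and 3 untrained mice, and CA3 and DG each by 3 trained and 2 untrained mice, which gave 16 libraries from 6 animals. Tissue pieces of 1 mouse were pooled by subregion, and each library is whole tissue, so that fewer cells of a type and less RNA per cell cannot be told apart.

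These proteins bind short motifs in pre-mRNA and mature mRNA and set which exons and 3′ ends are used. Proteins of the RBFOX family recognise UGCAUG and as a rule favour an exon when they bind in the intron after it and repress it when they bind before it. Rbfox3 encodes NeuN, the nuclear antigen used to mark mature neurons. NOVA proteins bind YCAY clusters in transcripts of inhibitory and other synapses, CELF proteins bind UG-rich elements in introns and 3′ UTRs, and neuronal ELAVL proteins bind U-rich elements and stabilise or alternatively process neuronal mRNAs. The files give 1 value per gene, so levels of these regulators are described below and the exons they act on are not.

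The RBFOX hexamer was looked for in the members' own transcripts, because RBFOX family members are known to act on transcripts of RNA-binding proteins. The search used the letters TGCATG on the sense strand of the longest annotated transcript of each gene in GRCm38 (GENCODE). Of 14484 genes searched, 8699 (60.1%) held at least 1 copy, and 8 of the 10 genes did, Nova1 with the most at 6 copies, all in its 3′ UTR. The letters were not found in the longest transcripts of Celf4 and Rbfox2. A match is a stretch of letters and not a measured binding site. Both coding matches, the pair of matches in Rbfox3, and the 6 in Nova1 are given, each in a window of 22 bases written 5′ to 3′ as DNA with the hexamer in capitals.
Rbfox1, coding exon 5 of 15, chr16:7277102-7277123, + strand: caagcggcTGCATGtgtccaac
Celf5, coding exon 5 of 12, chr10:81469453-81469474, - strand: ccatgcctTGCATGgcagccag
Rbfox3, 3′ UTR, exon 15 of 15, chr11:118492045-118492066, - strand: agagtaacTGCATGccctctct
Rbfox3, 3′ UTR, exon 15 of 15, chr11:118491285-118491306, - strand: ggtggcccTGCATGctgcagcc
Nova1, 3′ UTR, exon 5 of 5, chr12:46699324-46699345, - strand: aataatgcTGCATGctggccag
Nova1, 3′ UTR, exon 5 of 5, chr12:46698870-46698891, - strand: cggtaattTGCATGttttgtgg
Nova1, 3′ UTR, exon 5 of 5, chr12:46698822-46698843, - strand: gtatttccTGCATGcttattta
Nova1, 3′ UTR, exon 5 of 5, chr12:46698580-46698601, - strand: tcatgctgTGCATGcagtctta
Nova1, 3′ UTR, exon 5 of 5, chr12:46697856-46697877, - strand: tttttcctTGCATGtcacaagt
Nova1, 3′ UTR, exon 5 of 5, chr12:46695600-46695621, - strand: tggaattaTGCATGttattttt

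Before the members are compared, 3 properties of the libraries that touch the results are given. The deposited values are normalized estimated counts, and they summed to between 7606553 and 7984144 per library. Xist, the RNA that coats the inactive X, lay between 7601 and 19592 in the 9 trained libraries and between 25.5 and 52.4 in 6 of the 7 untrained ones, whereas the study's methods place both sexes in each group. The remaining library, labelled CA3 untrained replicate 1, had an Xist value of 10587, although the CA1 and DG libraries labelled with the same animal had 26.1 and 25.5. Ddx3y, a Y-linked gene, lay between 448.4 and 552.8 in those 6 untrained libraries, was at 201.4 in CA3 untrained replicate 1, and was lower yet not at 0 in the trained ones, from 1.66 to 255.2 (the highest in DG trained replicate 3). Training and sex-linked transcripts therefore separated nearly the same libraries. In 7 libraries (all CA1 trained, CA3 trained replicates 1 and 2, and both DG untrained) between 7567 and 9758 genes were at 0, and in the other 9 between 3124 and 5944 were. In CA1 the libraries with many genes at 0 were the trained ones and in DG they were the untrained ones, so within these subregions this property and training cannot be told apart.

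The labelled subregions were checked against their markers, and the check went partly against the labels. Prox1, a transcription factor that defines dentate granule cells, lay between 3052 and 3861 in the CA1 libraries, between 2690 and 4786 in the CA3 libraries and between 3292 and 4183 in the DG libraries. The summed level of 6 granule cell markers in CA1 and CA3 libraries (6766 to 11470) likewise covered that of the DG libraries (8167 to 10180). Of 5 CA1 pyramidal cell markers, the sum was 3222 to 5210 in untrained CA1 libraries and 1599 to 1986 in trained CA1 libraries, against 921.8 to 1613 in CA3 and 1342 to 2106 in DG. The sum of 5 CA3 markers was 2117 to 2354 in untrained CA1, below all other libraries (2809 to 3513). Subregion names below are therefore those of the labels. Neuronal markers (7 genes, including Map2, Tubb3 and Syn1) summed to 32610 to 34780 in untrained CA1 and to 36470 to 37630 in trained CA1.

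**Figure D1:**
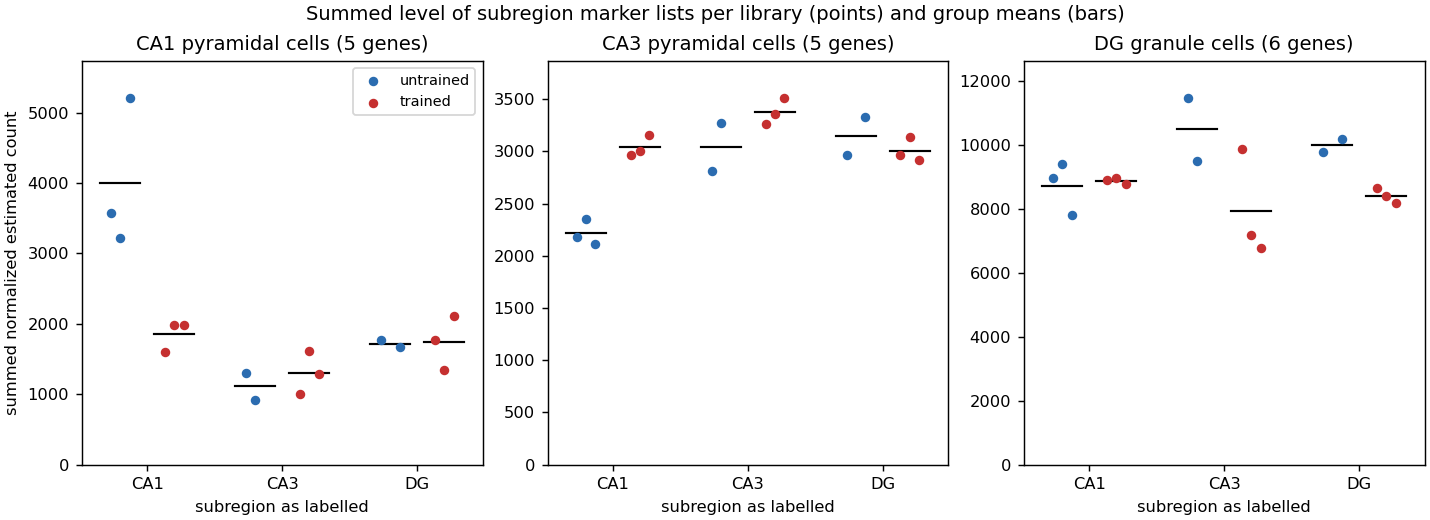
Summed normalized estimated counts of the CA1, CA3 and DG marker lists (vertical axes, from 0) in each library (points, blue untrained, red trained) by labelled subregion, with group means as bars. The CA1 list is high only in the 3 untrained CA1 libraries (3222 to 5210), and the granule cell list is as high in libraries labelled CA1 and CA3 as in those labelled DG.

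All 10 genes were expressed in every library. To compare genes, each value was divided by the length of the gene's longest transcript in kb. The order depended in part on the length used, as given after it. On this per-kb scale Rbfox1 had a mean level of 1721 ± 112 (SD, n = 16 libraries) and was the highest of the 10 in all 16 libraries, with no overlap with the next gene. Celf4 (783.8 ± 128) and Celf2 (727.1 ± 51.3) followed, and their order was not fixed, since Celf4 was above Celf2 in 9 of 16 libraries. Celf2 was ahead of Celf4 in the CA1 mean and Celf4 ahead of Celf2 in the CA3 and DG means. Rbfox3 (564.4 ± 51.7) was above Celf5 (435.8 ± 38.2) in all 16 libraries, although their ranges over libraries overlapped. Rbfox2 (399.1 ± 27.3) and Celf1 (388.6 ± 28.5) were close, with Rbfox2 higher in 10 of 16 libraries. Elavl3 (308.6 ± 15.9), Nova2 (198.9 ± 13.9) and Nova1 (42.88 ± 5.67) closed the order, and the ranges of these 3 genes did not overlap. Per kb of all merged exons of a gene instead, Rbfox1 (1198 ± 78.2) was again highest in each of the 16 libraries, and Elavl3 (224.6 ± 11.6), Nova2 (198.9 ± 13.9) and Nova1 (35.07 ± 4.63) again had the lowest means, although Celf2 was above Elavl3 in 14 of 16 libraries and not in all. The places between them changed. On merged exons Celf2, which has by far the longest merged exons (25884 bases), fell from the third place to the seventh (248.8 ± 17.5), Celf1 rose from the seventh to the third (361.3 ± 26.5), and Rbfox2 (338.6 ± 23.2) was above Rbfox3 (305.6 ± 28) in 15 of 16 libraries. Celf5 (287 ± 25.2) was above Rbfox3 in 5 of 16 libraries, and Celf4 (364.8 ± 59.4) was above Celf1 in 9 of 16. The order of these 6 genes is therefore not fixed by these data. Nova2 was above Nova1 in all 16 libraries on both lengths.

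**Figure D2:**
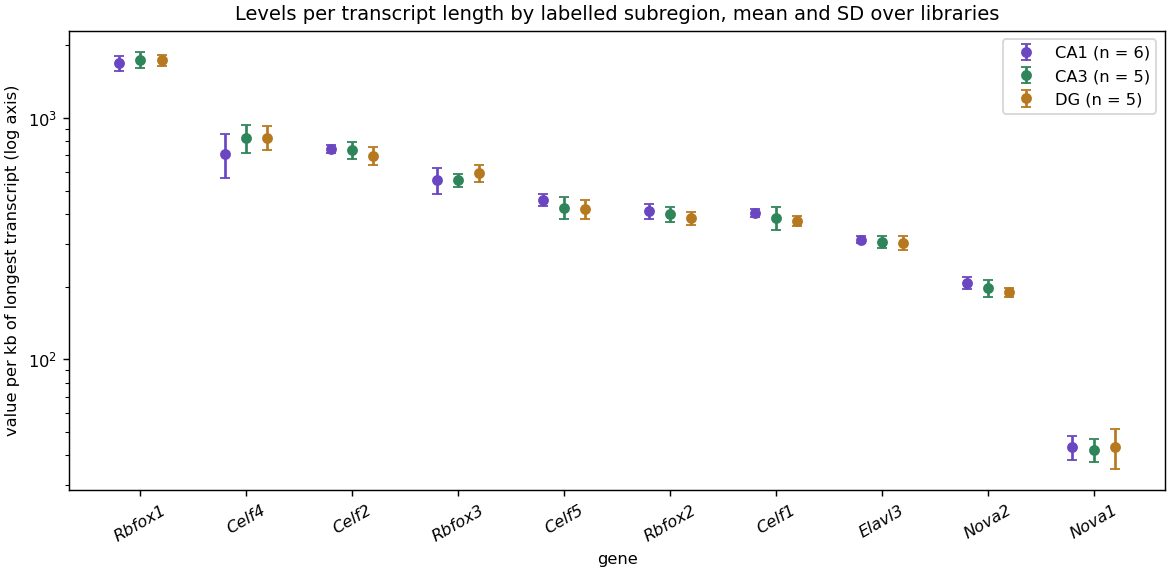
Mean normalized estimated count per kb of longest transcript (log axis) for each of the 10 genes in libraries labelled CA1 (n = 6), CA3 (n = 5) and DG (n = 5), with bars of 1 SD over libraries. Rbfox1 is highest (1721 over all 16 libraries) and Nova1 lowest (42.88), as also per kb of merged exons, whereas places of the CELF genes, Rbfox2 and Rbfox3 differ on that length, and the error bars of the 3 subregions overlap for each gene.

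The genes differ widely in size, from Celf5, which spans 23.5 kb on chromosome 10, to Rbfox1, which spans 1526 kb on chromosome 16. Celf1 and Celf2 lie on chromosome 2, Celf4 on 18, Rbfox2 on 15, Rbfox3 on 11, Nova1 on 12, Nova2 on 7 and Elavl3 on 9 (GRCm38). Across the 16 libraries most of them varied little. The highest value of Elavl3 was 1.2 times its lowest, which is a narrower range than that of all but 6.52% of genes with a mean value of at least 100. Celf4 varied most, with a highest value 1.7 times its lowest (84.4th percentile), followed by Nova1 (1.58 times) and Rbfox3 (1.45 times).

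To ask whether the genes differ between subregions, libraries were compared within animals with limma on log2(value + 2). None of the 10 genes passed an adjusted p of 0.05 in any of the 3 comparisons, where 0.334% of 14670 genes did between CA1 and CA3, 1.8% did between CA1 and DG, and 0% did between CA3 and DG (Benjamini-Hochberg adjustment). At an unadjusted p under 0.05 the members were 1 for CA1 against CA3, 4 for CA1 against DG and 0 for CA3 against DG, beside 9.44%, 16.6% and 4.5% of all genes. The 1 was Celf4, which was 0.24 lower in CA1 than in CA3 on the log2 scale (95% interval -0.39 to -0.08, SE 0.072, limma adjusted p = 0.206). Against DG, Celf4 was 0.18 lower in CA1 (-0.33 to -0.03, adjusted p = 0.210), while Celf5 (0.17), Rbfox2 (0.12) and Nova2 (0.15) were higher in CA1 with adjusted p between 0.153 and 0.196. With a term that marks the libraries rich in genes at 0, Celf4 passed in both CA1 comparisons (-0.25, adjusted p = 0.0332 against CA3, and -0.21, adjusted p = 0.0433 against DG). In trained libraries alone, however, Celf4 differed between CA1 and DG by 0.00 (SE 0.053, adjusted p = 0.989). Celf5 passed for CA1 against DG without untrained mouse 1 (0.22, adjusted p = 0.0429) and in trained libraries alone (0.26, adjusted p = 0.0198). Intervals for CA3 against DG stayed within -0.21 and 0.22 on the log2 scale for all 10 genes, so larger differences than these lay outside the intervals.

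Training was then compared over all subregions and within each one. In trained mice Celf4 and Rbfox2 were higher over all subregions, Celf4, Rbfox3 and Rbfox1 were higher in CA1, Celf2 was lower in DG, and none of the 10 passed the test in CA3. Over all subregions 2 of 10 members were called, beside 10.3% of 14670 genes, and both were higher, as 6.28% of genes were. In CA1 3 of 10 were called, beside 5.23% of 13585 genes, and all 3 were higher, as 3.53% of genes were. In CA3 limma called 0 of 10 (0.852% of 13845 genes), and 2 had an unadjusted p under 0.05 (15.8% of genes). In DG 1 of 10 was called (3.4% of 13932 genes), and it was lower, as 1.66% of genes were. The combined comparison uses the same libraries as the other 3 and treats libraries of 1 animal as independent, so these 4 counts are not separate evidence. The median log2 difference of the 10 genes was 0.14 for CA1, 0.12 for CA3 and -0.10 for DG, beside medians of 0.00, -0.01 and 0.00 over all genes tested.

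**Figure D3:**
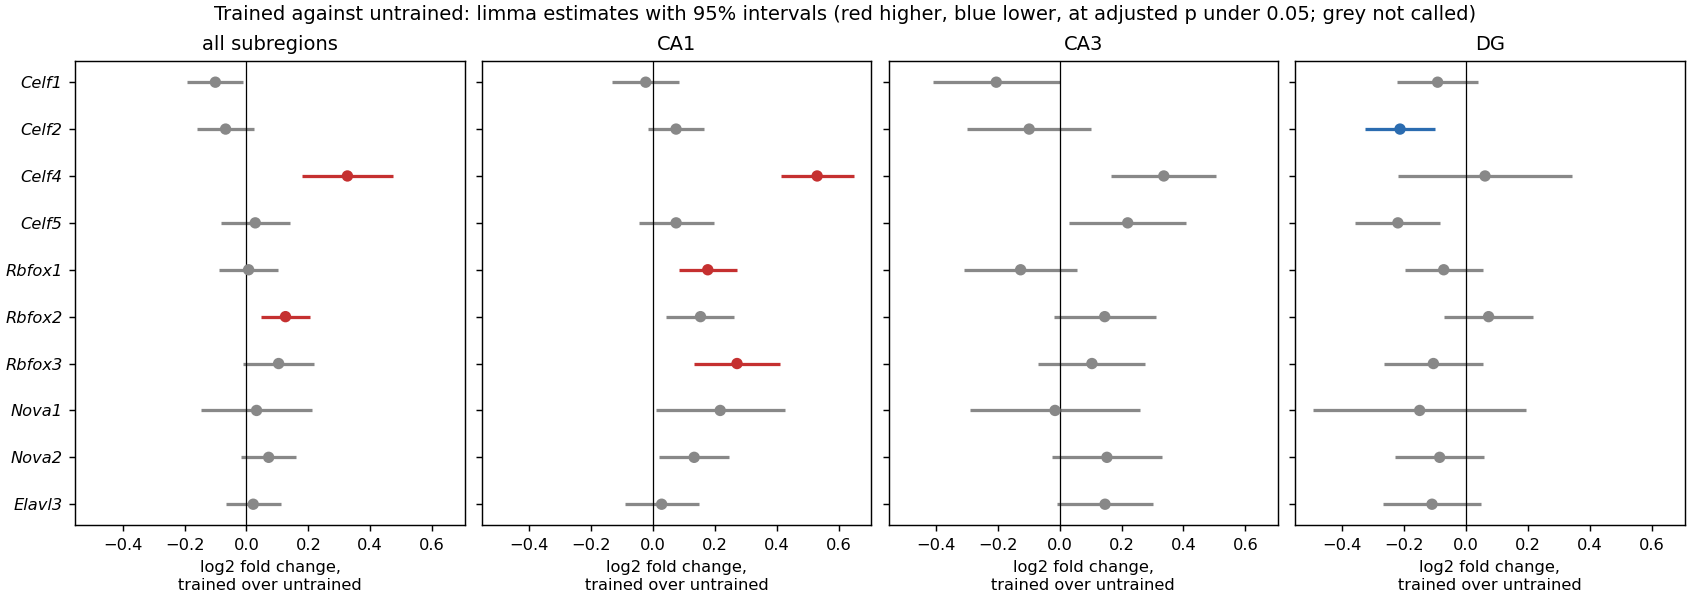
Log2 fold change, trained over untrained, of each gene from limma (points) with 95% intervals (bars), over all subregions and in CA1, CA3 and DG. Red marks a higher and blue a lower gene at an adjusted p under 0.05, and grey marks genes not called. Celf4 lies farthest to the right in CA1 (0.53) and its DG interval (-0.22 to 0.34) crosses 0.

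Celf4, which binds mRNAs of synaptic proteins in excitatory neurons and whose loss causes seizures in mice, showed the widest difference of the 10. In CA1 its values were 2353, 2208 and 2405 in untrained and 3591, 3356 and 3124 in trained libraries. The groups did not overlap, and the fold from the fit on log2(value + 2), trained over untrained, was 1.44 (log2 difference 0.53, 95% interval 0.41 to 0.65, SE 0.056, n = 3 and 3, limma adjusted p = 1.78e-05). In CA3 the values were 2905 and 2796 in untrained and 3744, 3707 and 3360 in trained libraries. These did not overlap either, but the difference of 0.34 (0.17 to 0.51, SE 0.077) did not pass the test (limma adjusted p = 0.0716), and it did pass without trained replicate 1 (0.31, adjusted p = 0.0447). In DG the untrained values were 2754 and 3741, the lowest and the highest of that subregion, and the trained values were 3449, 3466 and 3139. The difference in DG was 0.06 (-0.22 to 0.34, limma adjusted p = 0.834). The choice of untrained library decided its sign, with 0.28 (adjusted p = 0.0185, called) without untrained replicate 3, the library at 3741, and -0.16 (adjusted p = 0.236) without untrained replicate 1, and it was -0.30 (SE 0.295, limma adjusted p above 0.99) with the sex-linked covariate described below. Wherever 1 of the 2 untrained libraries of DG or CA3 is left out, here and in the results that follow, the lone untrained library was assumed to vary like the other groups of the fit.

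Over all subregions Celf4 was higher in trained libraries by a fitted fold of 1.25 (log2 difference 0.33, SE 0.070, n = 9 and 7, limma adjusted p = 0.00682). The adjusted p was 0.118 without untrained mouse 1 (0.30) and 0.0508 without trained mouse 2 (0.31). With a term that marks the libraries rich in genes at 0 the difference was 0.27 (adjusted p = 0.00198). With the sex-linked score (Y-linked genes minus Xist) entered as covariate, Celf4 was not called over all subregions (0.21, adjusted p = 0.711) or in CA1 (0.55, SE 0.345, adjusted p above 0.99 in limma). The part of these transcripts in the result was not tested beyond this fit. Of the marker lists, limma called 3 of 7 neuronal markers (Nefl, Stmn2 and Uchl1), 1 of 6 interneuron markers and 1 of 4 endothelial markers as higher over all subregions. It called 2 of 7 astrocyte markers and 1 of 6 granule cell markers as lower, and of 5 CA3 markers 2 as higher and 1 as lower. Of the CA1 (5), oligodendrocyte (7), microglia (7) and choroid plexus (5) lists it called 0, with 1, 0, 0 and 2 at an unadjusted p under 0.05. Their part in the combined results of Celf4 and Rbfox2 was not tested.

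Celf5, the close relative of Celf4 that is likewise enriched in brain, was called in no training comparison. In CA1 its values were 1973, 1845 and 2074 in untrained and 2097, 2146 and 1959 in trained libraries, which overlap. In CA3 untrained values were 1743 and 1646 and trained values 2114, 2023 and 1795, all above. In DG the order was opposite, with untrained values of 2041 and 1982 above trained values of 1724, 1780 and 1675. None of these differences passed the test (limma log2 differences 0.07, 0.22 and -0.22, adjusted p = 0.531, 0.250 and 0.0692). In DG Celf5 did pass without untrained replicate 3 (-0.24, adjusted p = 0.0416), a fit with a lone untrained library, and after GC content and transcript length were fitted out of each library (-0.24, adjusted p = 0.0310).

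Celf2, which acts on splicing and 3′ ends in neurons and in T cells, was lower in trained DG. There its values were 6692 and 6762 in untrained and 5702, 5960 and 5740 in trained libraries, with no overlap. The fitted fold was 0.862 (log2 difference -0.21, SE 0.053, limma adjusted p = 0.0371). The call was lost when any one DG library other than untrained replicate 3 was left out, with adjusted p between 0.0509 and 0.188 and differences between -0.23 and -0.20. It was also lost without robust estimation (adjusted p = 0.0647) and with the sex-linked score entered as covariate (-0.26, limma adjusted p above 0.99). In CA1 Celf2 values were 6444, 6407 and 6398 in untrained and 6471, 6785 and 7020 in trained libraries, all above yet not called (0.07, adjusted p = 0.370). In CA3 they were 7026 and 6547 in untrained and 6886, 6544 and 5642 in trained libraries, which overlap. Over all subregions Celf2 was not called (-0.07, limma adjusted p = 0.368), and it was called as lower with a term that marks the libraries rich in genes at 0 (-0.11, adjusted p = 0.0369).

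Beside the DG values, 1 of 6 granule cell markers passed the test in DG and was lower, Prox1 (-0.31, limma adjusted p = 0.00969), and the summed list was 9789 to 10180 in untrained and 8167 to 8660 in trained DG libraries. Of 4 endothelial markers 1 passed in DG and was lower, Flt1 (-0.94, limma adjusted p = 0.00143), and that list summed to 762.8 to 805.5 in untrained and 625.4 to 669.8 in trained DG libraries. The part of these markers in the decrease of Celf2 was not tested.

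Celf1, the broadly expressed member that binds GU-rich elements and promotes mRNA decay, was called nowhere. It had values of 3019, 3363 and 3211 in untrained and 3036, 3176 and 3217 in trained CA1, and of 3423 and 3138 in untrained and 3168, 2814 and 2580 in trained CA3. In DG 3183 and 2917 in untrained lay above 2852, 2865 and 2857 in trained libraries. Differences were -0.02, -0.20 and -0.09 on the log2 scale, with limma adjusted p of 0.859, 0.320 and 0.446. Groups of libraries without overlap were common in these small groups. Trained values lay all above untrained ones for 7 members in CA1 (12.9% of genes tested) and for 6 in CA3 (17.2%), and all below for 3 in DG (18.2%).

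**Figure D4:**
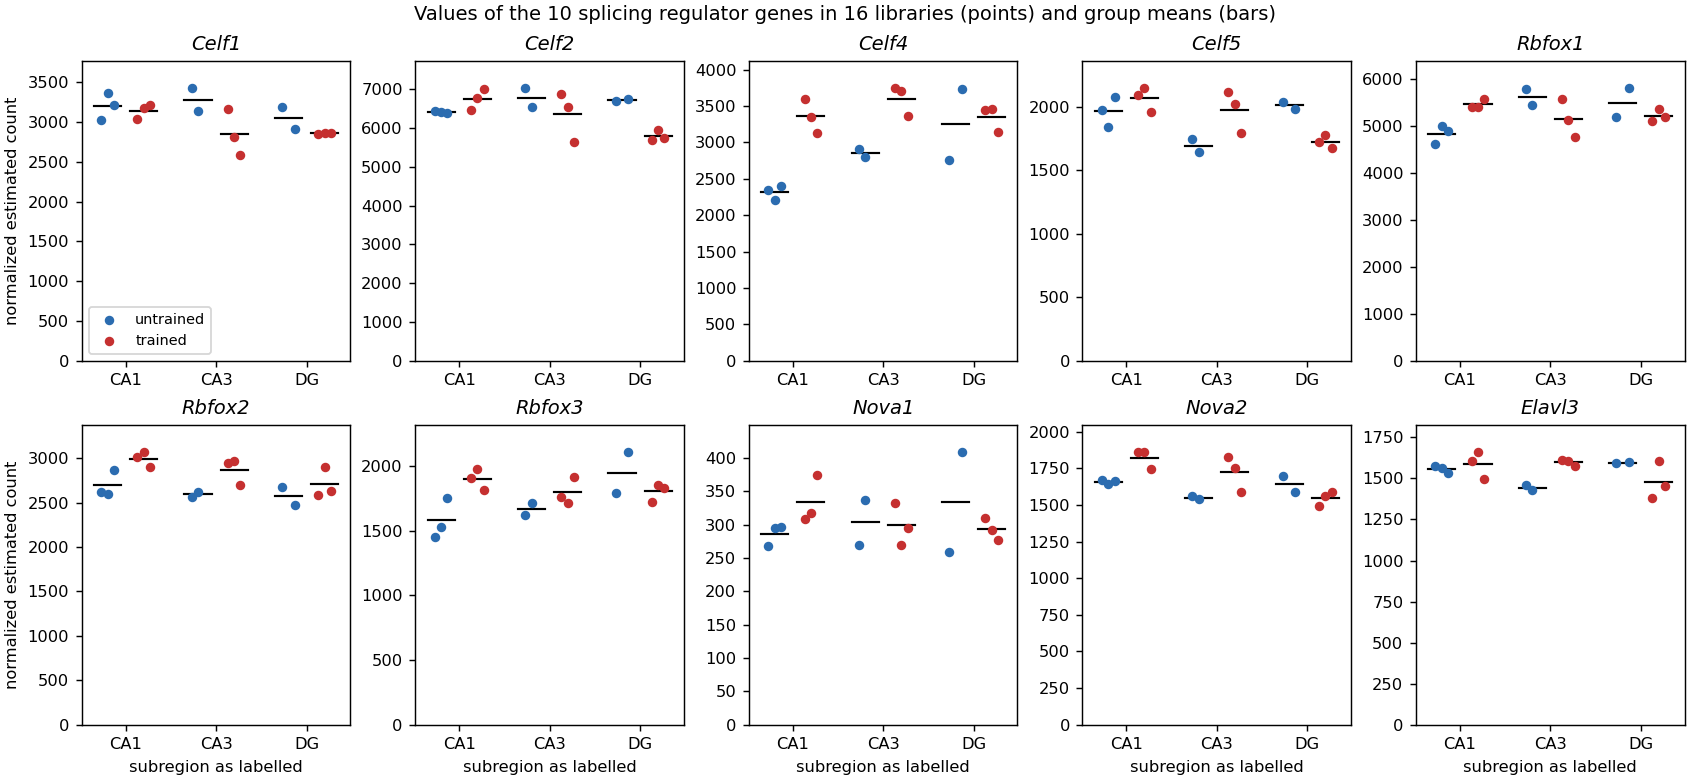
Normalized estimated count (vertical axes, from 0) of each gene in the 16 libraries (points, blue untrained, red trained) by labelled subregion, with group means as bars. Celf4 in CA1 moves from 2208 to 2405 in untrained to 3124 to 3591 in trained libraries, and the DG untrained pair of Celf4 (2754 and 3741) spans all DG values.

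Of the RBFOX family, Rbfox1 and Rbfox3 were higher in trained CA1 and Rbfox2 was higher over all subregions. Rbfox3 values in CA1 were 1449, 1530 and 1753 in untrained and 1904, 1978 and 1814 in trained libraries. The groups did not overlap, and the fitted fold was 1.21 (log2 difference 0.27, SE 0.066, n = 3 and 3, limma adjusted p = 0.0206). Rbfox1, a splicing regulator of ion channel and synaptic transcripts, had CA1 values of 4612, 5008 and 4906 in untrained and 5419, 5411 and 5582 in trained libraries. These did not overlap either, and the fitted fold was 1.13 (0.18, SE 0.045, limma adjusted p = 0.0254). Both calls depended on single libraries. Rbfox3 was lost without trained replicate 1 (adjusted p = 0.0698), trained replicate 2 (0.124), untrained replicate 1 (0.165) and untrained replicate 2 (0.0741), with differences between 0.21 and 0.27. Rbfox1 was lost without each trained replicate (adjusted p between 0.0624 and 0.101) and without untrained replicate 1 (0.14, adjusted p = 0.192), and under upper-quartile rescaling (0.15, adjusted p = 0.0550). With the sex-linked score entered as covariate, Rbfox3 had a difference of -0.14 (SE 0.388) and Rbfox1 one of 0.16 (SE 0.281), and both had a limma adjusted p above 0.99.

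In CA3 and DG neither gene was called, and over all subregions Rbfox3 was called without untrained mouse 3 alone among its alternatives (0.18, adjusted p = 0.0248). Rbfox3 in CA3 was 1623 and 1715 in untrained and 1757, 1715 and 1914 in trained libraries, and in DG it was 1786 and 2104 in untrained and 1721, 1854 and 1831 in trained libraries. Rbfox1 in CA3 was 5795 and 5445 in untrained and 5575, 5127 and 4769 in trained libraries, and in DG it was 5190 and 5807 in untrained and 5110, 5357 and 5195 in trained libraries. All of these groups overlapped or lay less than 1 unit apart at their nearest values. Beside the CA3 values, 1 of 6 interneuron markers was higher (Sst, 0.82), 1 of 7 neuronal markers was higher (Uchl1, 0.83), and 2 of 5 choroid plexus markers were lower (Ttr -3.29 and Clic6 -2.55), with the choroid plexus sum at 808.6 to 1120 in untrained and 235.7 to 317.5 in trained CA3 libraries. Their part in the values of CA3 was not tested.

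Rbfox2, the family member with the widest tissue distribution, was higher in trained libraries over all subregions by a fitted fold of 1.09 (log2 difference 0.13, SE 0.039, n = 9 and 7, limma adjusted p = 0.0382). Its CA1 values were 2615, 2594 and 2870 in untrained and 3016, 3065 and 2898 in trained libraries, and its CA3 values were 2565 and 2620 in untrained and 2945, 2968 and 2698 in trained libraries, without overlap in either. In DG 2669 and 2471 in untrained overlapped 2588, 2896 and 2627 in trained libraries. Within subregions it was not called (0.15, 0.15 and 0.07, limma adjusted p = 0.102, 0.371 and 0.606). The combined call was lost with a term that marks the libraries rich in genes at 0 (0.11, adjusted p = 0.0561), without the low-value filter (adjusted p = 0.0530), without CA3 untrained replicate 1 (0.12, adjusted p = 0.0819), without trained mouse 1 or 2 or untrained mouse 1 or 2 (0.10 to 0.13, adjusted p between 0.0845 and 0.240), and with the sex-linked score (0.08, adjusted p = 0.801). After GC content and transcript length were fitted out of each library, Rbfox2 was called in CA1 (0.21, adjusted p = 0.0153), as it was there without untrained replicate 3 (0.20, adjusted p = 0.0118).

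Beside the CA1 results for Celf4, Rbfox1 and Rbfox3, other lists moved between the same libraries. Of 5 CA1 pyramidal cell markers 2 passed the test and were lower in trained CA1, among them Fibcd1 (-1.32, limma adjusted p = 0.0139). Of 5 CA3 markers 3 were higher (Trps1 0.56, Grik4 0.56 and Cpne4 0.37) and Coch was lower (-1.50). Of 7 neuronal markers 4 were higher, Uchl1 with 0.63 and Syt1, Nefl and Stmn2 with 0.19 to 0.36. Iyd, a defining marker of CA3, was low in all libraries, at 0.835 to 18.4 in CA1, 10.1 to 14.4 in CA3 and 7.40 to 15.7 in DG. Of the other lists 1 of 6 granule cell markers (lower), 1 of 7 astrocyte markers (lower) and 1 of 4 endothelial markers (higher) passed in CA1, and 0 of 6 interneuron, 0 of 7 oligodendrocyte, 0 of 7 microglia and 0 of 4 choroid plexus markers did by limma (2, 0, 0 and 0 at an unadjusted p under 0.05). The choroid plexus sum was 1008 to 1176 in untrained CA1 and 2400, 312.1 and 308 in trained CA1, and the library at 2400 is trained replicate 1, which also had the highest CA1 value of Celf4 (3591). The part of these markers in the differences of Celf4, Rbfox1 and Rbfox3 was not tested.

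Because Rbfox1 and Rbfox3 were both higher in trained CA1, their promoters are shown, each 250 bases before to 50 after a start, written 5′ to 3′. The sequences are from RefSeq (GRCm38.p6), in which 8 of the 10 genes had an entry. The 1 Rbfox3 entry lies inside the gene as annotated in GENCODE (chr11:118489762-118911597, - strand) and not at its 5′ end.
Rbfox1 upstream start, chr16:5884543-5884842, + strand: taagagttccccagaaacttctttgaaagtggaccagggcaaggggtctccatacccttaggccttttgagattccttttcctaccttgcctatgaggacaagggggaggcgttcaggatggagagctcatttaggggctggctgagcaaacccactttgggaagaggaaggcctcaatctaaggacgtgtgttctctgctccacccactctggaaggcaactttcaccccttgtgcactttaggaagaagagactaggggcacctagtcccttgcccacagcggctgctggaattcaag
Rbfox1 downstream start, chr16:7069585-7069884, + strand: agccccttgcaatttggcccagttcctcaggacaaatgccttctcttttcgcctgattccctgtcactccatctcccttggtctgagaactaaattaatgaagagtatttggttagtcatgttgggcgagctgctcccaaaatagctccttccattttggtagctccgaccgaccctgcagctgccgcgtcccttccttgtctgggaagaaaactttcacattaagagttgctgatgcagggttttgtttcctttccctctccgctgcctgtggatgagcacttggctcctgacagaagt
Rbfox3 start, chr11:118760992-118761291, - strand: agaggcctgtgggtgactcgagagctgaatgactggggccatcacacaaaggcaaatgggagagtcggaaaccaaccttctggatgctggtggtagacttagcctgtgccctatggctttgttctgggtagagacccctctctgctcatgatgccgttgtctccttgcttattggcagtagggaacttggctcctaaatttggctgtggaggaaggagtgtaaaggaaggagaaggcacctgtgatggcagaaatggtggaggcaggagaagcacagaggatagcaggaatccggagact
On both strands the GC box was searched as GGGCGG and the cyclic AMP response element as TGACGTCA. The TATA box was searched as TATAAA and the E-box as CACGTG. None of these was found in the 3 windows, which says only that these letters are not there. Of 32851 promoters, 35.7% held the GC box, 1.79% the cyclic AMP response element, 13.6% the TATA box and 7.15% the E-box. The GC content was 52.7% in the window of the upstream Rbfox1 start and 53.0% in that of Rbfox3.

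Nova1 and Nova2, named for neuro-oncological antigens, were called in no training comparison with all libraries. Nova2 in CA1 was 1671, 1642 and 1664 in untrained and 1859, 1858 and 1743 in trained libraries, and in CA3 it was 1561 and 1537 in untrained and 1830, 1754 and 1590 in trained libraries. These groups did not overlap, while in DG 1699 and 1587 in untrained overlapped 1491, 1561 and 1591 in trained libraries. Log2 differences were 0.13, 0.15 and -0.09, with limma adjusted p of 0.178, 0.386 and 0.534. Nova1, the gene with the lowest level, had CA1 values of 267.4, 294.2 and 295.8 in untrained and 307.8, 318.1 and 374.2 in trained libraries (0.22, SE 0.100, limma adjusted p = 0.244). Its DG untrained libraries were 258.7 and 408.4, the lowest and highest of all 16, against 310.1, 291.4 and 277.5 in trained DG, and the 95% interval there reached from -0.50 to 0.19. Leaving out 1 of the untrained pair decided the sign, with -0.48 (limma adjusted p = 0.0261, called) without untrained replicate 1 and 0.18 (adjusted p = 0.387) without untrained replicate 3. In CA3 it was 270.1 and 336.4 in untrained and 333, 269.8 and 295.5 in trained libraries.

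Elavl3 encodes HuC, one of the neuronal Hu proteins, and its values were the steadiest of the 10. It was 1573, 1562 and 1535 in untrained and 1607, 1659 and 1498 in trained CA1, 1458 and 1431 in untrained and 1614, 1609 and 1574 in trained CA3, and 1591 and 1601 in untrained and 1379, 1608 and 1456 in trained DG. Only the CA3 groups did not overlap, and no difference passed the test (limma log2 differences 0.03, 0.15 and -0.11, adjusted p = 0.851, 0.339 and 0.451).

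The training effects of a pair of subregions were compared directly as an interaction in a single fit. That fit had no term for the animal, so libraries of 1 animal were treated as independent. Between CA1 and DG, 1 of the 10 genes was called, Celf4, beside 2.75% of 14670 genes. The training effect of Celf4 on the log2 scale was 0.47 larger in CA1 than in DG (95% interval 0.21 to 0.73, SE 0.126, limma adjusted p = 0.0479). Without untrained mouse 3, which gave the highest DG value of Celf4, the difference was 0.27 (adjusted p = 0.183). It also missed the threshold with a pseudocount of 0.5 (0.47, adjusted p = 0.0528) and when other animals were left out (0.43 to 0.49, adjusted p between 0.0828 and 0.145), except untrained mouse 1. All 10 interaction estimates were positive for CA1 minus DG, beside 48.9% of all genes. Rbfox3 (0.38, adjusted p = 0.0598), Celf2 (0.29, adjusted p = 0.0757) and Celf5 (0.30, adjusted p = 0.0969) did not pass. With GC content and transcript length fitted out these 3 and Rbfox1 did (0.38 to 0.47, adjusted p between 0.00645 and 0.0134).

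Between CA1 and CA3 limma called 0 of the 10 (0.0273% of genes), and 1, Rbfox1, had an unadjusted p under 0.05 (0.30, adjusted p = 0.336, with 6.71% of genes under an unadjusted p of 0.05). Between CA3 and DG it called 0 of the 10 (0.13% of genes), and 3 had an unadjusted p under 0.05 (11.7% of genes), with Celf5 at 0.44 (SE 0.102, adjusted p = 0.0874). Celf5 passed without trained mouse 3 (0.49, adjusted p = 0.0339). These 3 interactions share libraries with one another and with the comparisons within subregions.

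Ratios within a library compare related genes without any scaling between libraries, and they are given as a description with no test. Celf4 was 1.16 to 1.2 times Celf5 in untrained CA1 and 1.56 to 1.71 times in trained CA1, so that all trained ratios lay above. The ratio was 1.67 to 1.7 in untrained and 1.77 to 1.87 in trained CA3, and 1.35 to 1.89 in untrained and 1.87 to 2 in trained DG. Celf4 over Celf2 was 0.345 to 0.376 in untrained and 0.445 to 0.555 in trained CA1, and 0.414 to 0.427 and 0.544 to 0.596 in CA3, without overlap in either, while in DG 0.412 to 0.553 overlapped 0.547 to 0.605. Rbfox1 over Rbfox3 overlapped in CA1 (2.8 to 3.27 in untrained, 2.74 to 3.08 in trained), as did Nova1 over Nova2 (0.16 to 0.179 and 0.166 to 0.215) and Celf1 over Celf2 (0.468 to 0.525 and 0.458 to 0.469). Outside CA1, Celf1 over Celf2 did not overlap and went opposite ways, lower in trained CA3 (0.479 to 0.487 in untrained, 0.43 to 0.46 in trained) and higher in trained DG (0.431 to 0.476 and 0.481 to 0.5). Rbfox1 over Rbfox3 in CA3 (3.18 to 3.57 in untrained, 2.49 to 3.17 in trained) came close to overlap, with nearest values of 3.175 and 3.174. That ratio overlapped in DG, and Nova1 over Nova2 overlapped in CA3 and DG. Rbfox1 over Rbfox2 was lower in trained CA3 without overlap (2.08 to 2.26 and 1.73 to 1.89), and overlapped in CA1 and DG. Rbfox2 over Rbfox3 did not overlap in CA1, with 1.64 to 1.81 in untrained and 1.55 to 1.6 in trained libraries, and overlapped in CA3 and DG.

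**Figure D5:**
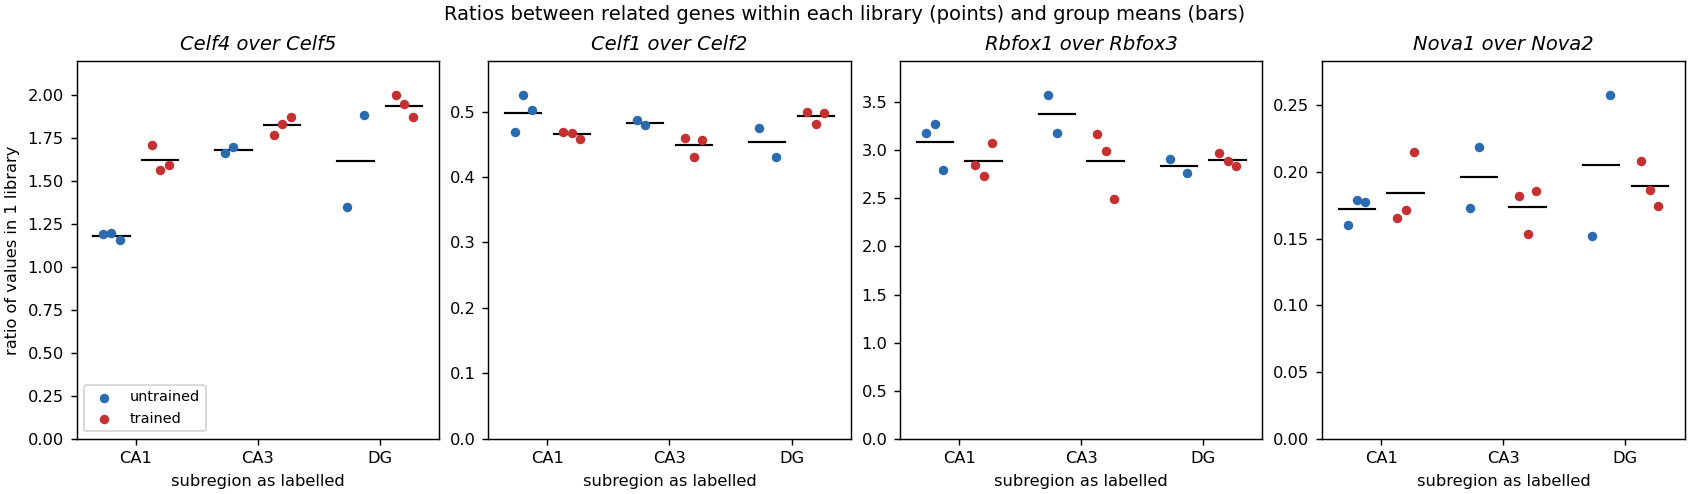
Ratio of the values of related genes in each library (vertical axes, from 0; points, blue untrained, red trained) by labelled subregion, with group means as bars. In CA1 Celf4 over Celf5 is 1.16 to 1.2 in untrained and 1.56 to 1.71 in trained libraries, and Celf1 over Celf2, Rbfox1 over Rbfox3 and Nova1 over Nova2 overlap there.

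Other RNA-binding regulators were followed as lists. Of 5 relatives of the CELF and ELAVL families (Celf3, Celf6, Elavl1, Elavl2, Elavl4), 1 was called, Elavl2, which encodes HuB. It was higher over all subregions (log2 difference 0.45, limma adjusted p = 0.0219) and in CA1 (0.57, adjusted p = 0.000452), where untrained values were 407.5 to 422.3 and trained values 549.2 to 684.8. Of all genes, 10.3% were called over all subregions and 5.23% in CA1. Over all subregions 3 of the 5 relatives had an unadjusted p under 0.05 by limma (25.5% of all genes). There 1 of the 5 had a positive difference (47.8% of all genes). The list's median was -0.10 over all subregions, beside -0.01 for all genes. Of 16 other splicing regulators, among them the PTB, MBNL and KHDRBS families, 2 were called over all subregions (beside 10.3% of all genes) and both were lower, Ptbp3 (-0.25, adjusted p = 0.0117), a relative of the repressor PTB, and Mbnl2 (-0.14, adjusted p = 0.0255), a muscleblind protein of adult brain. None of that list was called within a subregion by limma, where 2 of 15 tested (CA1), 3 of 15 (CA3) and 6 of 16 (DG) had an unadjusted p under 0.05, beside 18.9%, 15.8% and 19.5% of all genes. Of 8 partners of RBFOX proteins in their large nuclear assembly, such as Hnrnpm and Matr3, limma called 0 in any of the 4 comparisons, and 3 of 8 over all subregions and 1 of 8 in each of CA1, CA3 and DG had an unadjusted p under 0.05, beside 25.5%, 18.9%, 15.8% and 19.5% of all genes. Their medians lay between -0.10 and -0.01.

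Last among the lists, 14 transcripts whose exons or 3′ ends members are known to act on were compared by their gene levels. Of the 14, 5 were called over all subregions (10.3% of all genes were), 5 in CA1 (5.23%) and 2 in DG (3.4%). Over all subregions 4 were higher and 1 lower, and the following are among them. Snap25, a SNARE protein of synaptic vesicle release, was higher by 0.27 (limma adjusted p = 0.00128), and Vamp1, another SNARE protein, by 0.30 (adjusted p = 0.00229). Agrn, the organiser of synapses agrin, was higher by 0.24 (limma adjusted p = 0.00316). Dab1, the adaptor of reelin signalling with NOVA-regulated exons, was lower by 0.20 (-0.20, adjusted p = 0.0177). In CA1 3 were higher, Snap25 (0.40, adjusted p = 9.61e-06), the calcium channel gene Cacna1c (0.36, adjusted p = 0.000255) and Vamp1 (0.32, adjusted p = 0.0175), and 2 were lower, Dab1 (-0.27, adjusted p = 0.0257) and the glycine receptor gene Glra2 (-0.68, adjusted p = 0.0346). In DG 1 was higher and 1 was lower, the latter Ank3, which encodes ankyrin-G of the axon initial segment (-0.27, limma adjusted p = 0.0171). In CA3 limma called 0 of the 14, and 8 had an unadjusted p under 0.05, beside 15.8% of all genes. The median of the 14 was 0.05 over all subregions and in CA1, 0.07 for CA3 and -0.01 for DG.

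The pattern of each gene over the 16 libraries was set beside that of 10754 other genes with a mean value of at least 50. These correlations are of log2 values, describe libraries that share animals and training groups, and have no p. Celf4 was most like Kcnmb4 (Pearson r = 0.965, Spearman rho = 0.926), which encodes a subunit of the BK potassium channel. Celf1 was most like Cntnap5a (0.952 and 0.85), Celf2 like Syt7 (0.921 and 0.856) and Celf5 like Zfhx2 (0.911 and 0.944). Rbfox1 was most like Trp53i11 (0.896 and 0.891), Rbfox2 like Extl3 (0.916 and 0.897) and Rbfox3 like Fam3a (0.883 and 0.856). Nova1 was most like Sarnp (0.819 and 0.838), Nova2 like Mllt6 (0.896 and 0.806) and Elavl3 like Nrbp2 (0.845 and 0.809). Among the 10 genes themselves, Celf5 and Nova2 had the highest Pearson correlation (0.861) and Celf1 and Celf4 the lowest (-0.519). Pairs within a family were not always alike, with 0.74 for Celf1 and Celf2, 0.127 for Celf4 and Celf5, and 0.0503 for Nova1 and Nova2.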

How the data were processed

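Bulk RNA-sequencing libraries of CA1, CA3 and DG were grouped by the subregion and training of their titles. Before depositing, the authors converted reads with bcl2fastq 2.20, used STAR for alignment and Salmon for gene quantification, and normalized between libraries. The deposited signal is thus a normalized estimated count (not whole numbers, nearly equal sums). The build per the labels is GRCm38. The label names polyA RNA, whereas the protocol used an rRNA depletion kit. The depth in reads is unknown, so no counting intervals are given, and strand of counting is not given in the sources used here, so reads of overlapping genes cannot be told apart.

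Of 24972 listed genes, 4 with repeated symbols were left out. Values were tested as log2(value + 2), which understates changes of low genes, with limma 3.58.1 in R 4.3.3 (trend, robust estimation, Benjamini-Hochberg adjustment over all genes tested, a call being an adjusted p under 0.05). The authors used DESeq2 on counts, which these values do not allow. The low-value filter kept genes that reached a value of 10 in 2 libraries or more (3 for CA1). Training was compared within subregions and over all with subregion as a term. Subregions were compared with the animal as a block, and interactions in a fit of 6 groups with no animal term. In CA3 and DG 2 untrained libraries each limit the precision, and with nothing more than 3 animals per training group p-values measure the spread between these samples.

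Members, lists and alternatives were chosen with earlier results of these data known. Named genes were all members, list genes with an adjusted p under 0.05 in a training comparison (at most 6 per list) and each member's most correlated gene. Some list genes that met this rule are not reported here by name. Marker lists covered neurons, CA1, CA3, DG, interneurons, astrocytes, oligodendrocytes, microglia, endothelium and choroid plexus. Prox1, Iyd, Xist and the genes that exemplify a list were named after their values were seen. Over all 120 pairs of libraries the median absolute log2 difference was 0.114 to 0.236, and 0% of values above 0 were identical. Libraries of 1 animal did not deviate together (correlations -0.108 to 0.0921), and the pairing by animal comes from the titles. On simulated data with 200 genes changed by 1 (log2), 96% were called over all subregions (14318 genes), 81.5% in CA1 (13505), 74% in CA3 (13755) and 66% in DG (13745). Smaller changes, such as those of the members, were not simulated. Alternatives were other pseudocounts, filters and rescalings, no robust estimation, GC content and length trends removed, a sex-linked covariate (mean of 4 Y-linked genes minus Xist), a term marking libraries rich in genes at 0, replicate blocks, a single fit, and each animal left out. Figures were drawn with Python 3.11.15 and matplotlib 3.10.9.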

Additional observations from a re-analysis of the deposited data

Results flagged for a closer look

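The training effect of Celf4 differed between CA1 and DG by 0.47 on the log2 scale (limma interaction, SE 0.126, adjusted p = 0.0479), with trained libraries higher in CA1 (3 of 3 above all untrained ones) and a DG effect of 0.06. The difference was flagged because the interaction term itself passed the threshold. It rests on the untrained DG pair, 2754 and 3741, and was 0.27 (adjusted p = 0.183) without untrained mouse 3. Over 16 alternatives it lay between 0.27 and 0.70, was called in 7 and kept its sign in all 16. The part of libraries with many genes at 0, which are the trained ones in CA1 and the untrained ones in DG, cannot be told apart from training here.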

How the results depend on the processing

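Over all subregions 2 members were called. The count was 1 without a low-value filter and 0 with the sex-linked covariate. Without CA3 untrained replicate 1, an alternative added after seeing the data, it was 1. It was 0 to 3 when each animal was left out, the 3 being without untrained mouse 3 (beside 12.8% of all genes). In CA1 (3 called) it was 0 with the sex-linked covariate, under which Rbfox3 turned to -0.14, and 1 with a replicate block. It was 2 with upper-quartile rescaling and in a single fit of all libraries. With GC content and length trends removed it was 4 (beside 6.73% of all genes), and with single libraries left out 1 to 4. In CA3 (0 called) it was 4 with the replicate block (Celf4, Celf5, Rbfox2 and Nova2, beside 8.45% of all genes in that fit) and 0 to 1 with libraries left out. Trained and untrained mice share only their replicate numbers, and same-numbered libraries did not deviate together (correlations -0.18 to 0.119 over 7 pairs), so the blocked counts are given here alone. In DG (1 called) the count was 0 without robust estimation, with the sex-linked covariate and in a single fit of all libraries, 2 with GC content and length trends removed, and 0 to 3 with libraries left out. For CA1 against CA3 (0 called) it was 1 with a term marking libraries rich in genes at 0, and for CA1 against DG (0 called) 1 with that term, 1 in trained libraries only and 0 to 1 with animals left out. For the CA1 minus DG interaction (1 called) it was 0 with a pseudocount of 0.5, with a filter of at least 10 in every library, without robust estimation and without CA3 untrained replicate 1, 3 without a low-value filter, 5 with GC content and length trends removed (beside 8.79% of all genes), 2 with the sex-linked covariate and 0 to 1 with animals left out. For CA3 minus DG (0 called) it was 1 with GC content and length trends removed, 1 with the sex-linked covariate and 0 to 1 with animals left out. The cause of these changes was not tested, beyond the fewer libraries of the fits that leave one out. Over all genes tested, the sex-linked covariate left 0 calls in the combined comparison and 6 in CA1, where 1516 and 710 were called. Of 1620 values of single genes under alternatives, 1463 kept their sign and side of the threshold, and 88 changed sign without being called in either fit. Celf4 in CA1 was called in 15 of 16 alternatives (0.48 to 0.59 on the log2 scale), the exception being the sex-linked covariate. Leaving out untrained replicate 3 in CA3 and untrained replicate 2 in DG was not run, since no such library was analysed here. Rescaling moved the median of all genes by less than 0.1 on the log2 scale. The precision is limited by 2 untrained libraries each in CA3 and DG, where limma recovered 74% and 66% of changes of 1 in the simulation. Members differed by less than 1 in every training comparison, and recovery of such smaller changes was not simulated.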
